A study of Saccharomyces cerevisiae and Kluyveromyces marxianus with 18 samples.

Results

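The 50 loci described here encode proteins of the yeast mitochondrial ribosome (mitoribosome), 36 of the large subunit and 14 of the small subunit. They were found as the rows whose reference entry from strain S288C names 1 of the 50 loci (YDR116C, YMR286W, YML009C and the other MRPL, MRP and MRPS genes). That gave 49 of the 5330 genes counted in Kluyveromyces marxianus and 50 of the 6171 genes counted in Saccharomyces cerevisiae. MRPL44 (YMR225C) was not analysed here in K. marxianus. All 49 and all 50 passed the filter on low counts, and 0 of them overlap another gene in either annotation.

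The mitoribosome translates the few proteins that are encoded in mitochondrial DNA, most of them core subunits of the respiratory complexes and of ATP synthase. Nearly all of its own proteins are encoded in the nucleus, made in the cytosol and imported. Many are relatives of bacterial ribosomal proteins, and others have no bacterial counterpart. In S. cerevisiae the RNA-binding protein Puf3 binds messages of many mitochondrial genes, those of the mitoribosome among them, through a short element after the stop codon, and controls their decay and translation. S. cerevisiae can grow on glucose without mitochondrial respiration.

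Messenger RNA was measured by poly(A)-selected sequencing of 18 chemostat libraries in 9 groups of 2, from wild-type K. marxianus CBS6556, a thermotolerant yeast (8 libraries), and wild-type S. cerevisiae CEN.PK113-7D, a laboratory strain (10 libraries). All cultures were fed urea medium with antifoam at a dilution rate of 0.1 per h and pH 6. Glucose was 7.5 g/L in the aerobic groups and 20 g/L in all others. Ergosterol, the sterol of yeast membranes, was given at 10 mg/L, and Tween 80, a source of oleic acid, at 420 mg/L. The aerobic groups received ergosterol without Tween 80, and the oxygen-limited groups received both. Of the anaerobic groups, TE received both, T received Tween 80 without ergosterol, and the unsupplemented group, of S. cerevisiae alone, received neither. Glucose and Tween 80 thus change together with oxygen wherever the aerobic group is one side, and those factors cannot be told apart.

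Library totals were 6510449 to 10660870 read pairs in K. marxianus and 2849618 to 13112466 in S. cerevisiae. The lowest, library 2 of the unsupplemented group, stood apart: it held 7 to 564 read pairs per mitoribosomal gene with a median of 71, its scaling factor was 0.371 against 0.972 to 1.21 in the other 9 libraries, and the 50 genes took 0.199% of its counts against 0.486% to 1.83% elsewhere. The fit over all S. cerevisiae groups had a biological coefficient of variation of 32.1%, which was 12.8% without the unsupplemented group. Counts of S. cerevisiae members are therefore given with and without that group, wherever it is not one side of the comparison. Counts of the other S. cerevisiae gene lists were taken only in the fit that includes it. Calls over all genes moved as well, in oxygen-limited against aerobic cultures from 827 to 3632 of 5868 without it. Counts with DESeq2, a second test, with 2 groups alone or with 1 library left out have no share of all genes beside them. They show how calls depend on the fit and were not read as results about the members. The labels name a run code in each title, and groups and run codes coincide except for T and TE of K. marxianus and the unsupplemented and TE groups of S. cerevisiae, so all other comparisons cannot be told apart from the run code.

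The letters after the stop codon are shown first, because they are a feature that all 50 genes had in common and that did not enter their choice. The element TGTANATA, the letters at the core of the Puf3 site, was searched on the sense strand of the 250 bases after each stop codon of the S288C genome (RefSeq R64). It was present in 50 of 50 loci and in 910 of 6006 coding genes (15.2%). The following stretches of 30 bases, written 5′ to 3′ with the element in capitals, belong to members whose levels are described below.
MRPL39, bL33 relative, chrXIII:251207-251236, minus strand: ttcatttatccTGTAAATAagtaatggata
MRPL33, uL30 relative, chrXIII:842249-842278, plus strand: tgacttatataTGTATATAgtattattttt
MRPL50, bL9 relative, chrXIV:669719-669748, minus strand: gcgtacaatctTGTATATAggcaacatcgc
MRPL49, bL21 relative, chrX:246977-247006, plus strand: ttttagggataTGTACATAtacgcatacgt
MRPL31, no bacterial counterpart, chrXI:185225-185254, minus strand: aaaatttcatcTGTATATAgtttaatcatt
MRPL20, no bacterial counterpart, chrXI:599049-599078, minus strand: aataacaatcgTGTAAATActactctataa
MRP21, bS21 relative, chrII:49401-49430, plus strand: atttccgtcttTGTAAATAggtaatgcgta
MRPS17, uS17 relative, chrXIII:636217-636246, minus strand: gcactacactcTGTAAATAtatacaactac
MRP4, uS2 relative, chrVIII:100429-100458, plus strand: taacctaaactTGTACATAtgcccatatat
MRPL40, uL24 relative, chrXVI:224133-224162, plus strand: tatattcgaccTGTATATAtgaaagcataa

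The 50 loci held 63 such elements, and 12 loci held more than 1. The variable letter was A in 29, T in 19, C in 14 and G in 1 of the 63. The nearest element began 8 to 139 bases after the stop codon, with a median of 51.5. The element was also present in 25 of 26 other mitoribosomal protein genes and in 14 of 14 genes of mitochondrial tRNA synthetases, the enzymes that load amino acids for this ribosome. It was present in 7 of 9 mitochondrial translation factor genes, in 8 of 138 genes of the cytosolic ribosome (5.8%) and in 4 of 29 nuclear genes of respiratory complexes (13.8%). Before the start codon the picture was different: AATTTT, the letters of a growth-related upstream element, stood on either strand of the 300 bases upstream in 21 of 50 loci (42%) against 54.1% of 6006 coding genes, and CCAAT, the letters bound by the Hap complex that activates respiratory genes, in 16 of 50 (32%) against 41.8%. These matches are descriptions of letters in S288C; CEN.PK113-7D and K. marxianus sequences were not used here.

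Levels were compared between genes as CPM (scaled counts as a share of the library) per kb of gene. Averaged over the groups of K. marxianus the highest levels were those of MRPL39 (812 CPM per kb), MRPS16 (524), a relative of bacterial S16, and MRPL33 (517). Averaged over the groups of S. cerevisiae the same 3 genes were highest, at 1299 CPM per kb for MRPL39, 616 for MRPL33 and 597 for MRPS16. The lowest in K. marxianus were MRPL40 (62.2 CPM per kb), MRPL35 (108), which has no bacterial counterpart, and MRPL1 (YDR116C; 111), a relative of bacterial L1. In S. cerevisiae they were MRPL40 (88.1 CPM per kb), MRP13 (96.7), of the small subunit, and MRPL35 (97.0). Single libraries of these genes ranged widely: MRPL39 from 379 to 1978 CPM per kb in K. marxianus and from 284 to 3820 in S. cerevisiae, while MRPL40 stayed between 42.7 and 80.6 and between 33.8 and 143. MRPL39 had the highest group mean in each of the 9 groups, but the order below it changed: in oxygen-limited K. marxianus MRPL22 (290 CPM per kb) and MRPL38 (280.3) followed it, in aerobic S. cerevisiae MRPL23 (342), and in unsupplemented S. cerevisiae MRPL8 (458). The ranges over libraries overlapped between neighbours in this order, among the 3 highest and among the 3 lowest of each yeast. MRPL39 and MRPL33 are short genes, at 216 and 255 bases in K. marxianus and 213 and 261 bases in S. cerevisiae.

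Summed over its members in CPM, the small subunit held 30.1% to 33.6% of the total in the 8 K. marxianus libraries. It held 29.1% to 32.4% in the 10 S. cerevisiae libraries, the lowest being unsupplemented library 2. Median levels per kb were close as well, for example 196 CPM per kb for large-subunit and 179 for small-subunit members in aerobic K. marxianus, and 431 and 459 in oxygen-limited S. cerevisiae.

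The summed level of all members showed the contrast between the yeasts. In K. marxianus it was 5893 and 5996 CPM in the aerobic libraries, 5019 and 5060 in the oxygen-limited, 6562 and 7011 in the TE, and 10639 and 9032 in the T libraries. The T libraries were highest, the oxygen-limited libraries lowest, and no group overlapped another. In S. cerevisiae it was 5535 and 5103 CPM in the aerobic, 13786 and 16675 in the oxygen-limited, 7849 and 9504 in the TE, 4249 and 4248 in the T and 5633 and 5365 in the unsupplemented libraries. Here the oxygen-limited libraries were highest and the T libraries lowest, and only the aerobic and the unsupplemented libraries overlapped. The place of the unsupplemented group depended on scaling: as an unscaled share of all counts its members took 0.607% and 0.199%, on either side of the 0.488% and 0.486% in T. CPM are shares of the sequenced pool, and in bulk cultures fewer cells that make a message and less of it per cell cannot be told apart.

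**Figure D1:**
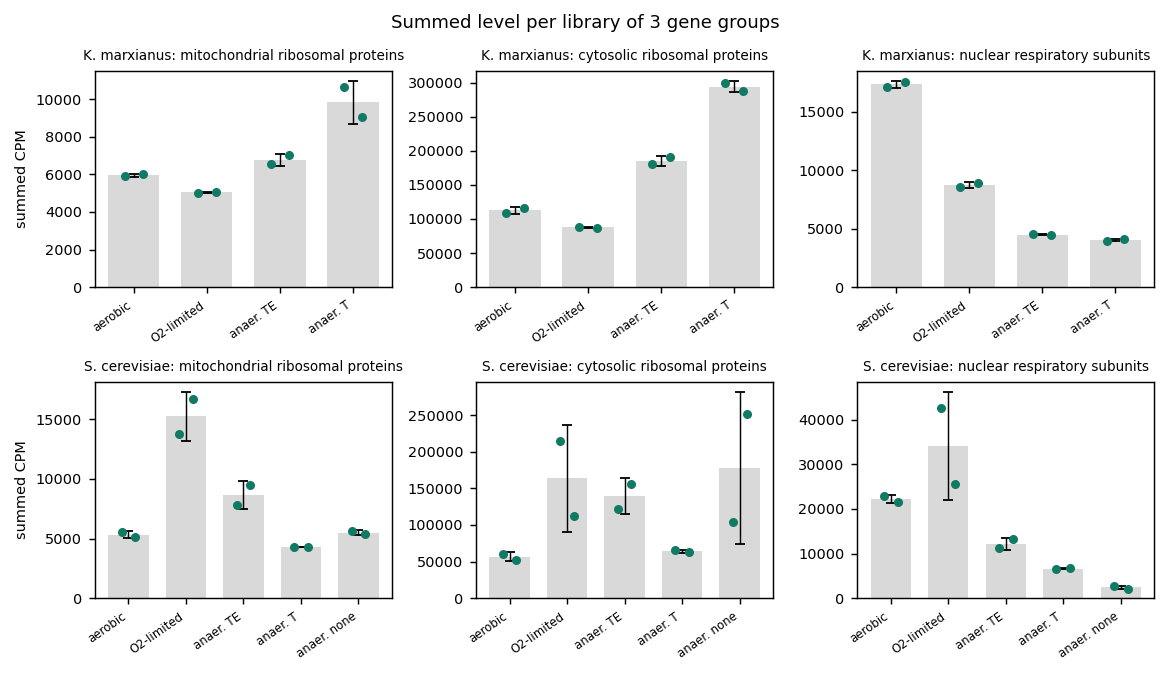
Summed CPM (TMM-scaled, linear axes from 0) of the mitoribosomal members, the genes of cytosolic ribosomal proteins and nuclear genes of respiratory complexes, in K. marxianus (top) and S. cerevisiae (bottom). Points are the 2 libraries of a group, bars their mean and error bars the SD; the member sum is highest in T of K. marxianus and in the oxygen-limited group of S. cerevisiae.

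Gene by gene the order was much the same. In K. marxianus 34 of 49 members had their highest group mean in T and 34 their lowest in the oxygen-limited group, against 31.7% and 28.1% of all genes tested. In S. cerevisiae 47 of 50 had their highest mean in the oxygen-limited group, against 20.6% of all genes. The 3 others, whose highest mean was in the unsupplemented group, were high in library 2 and not in library 1: MRPL8 was at 123 and 533 CPM, MRPL3 at 97.6 and 285 and MRP4 at 113 and 408 in the unsupplemented libraries. The lowest mean was in T for 24 members, in the unsupplemented group for 19 and in the aerobic group for 7. Of all genes 21%, 30.4% and 19.1% had their lowest mean in these groups, in the same order.

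**Figure D2:**
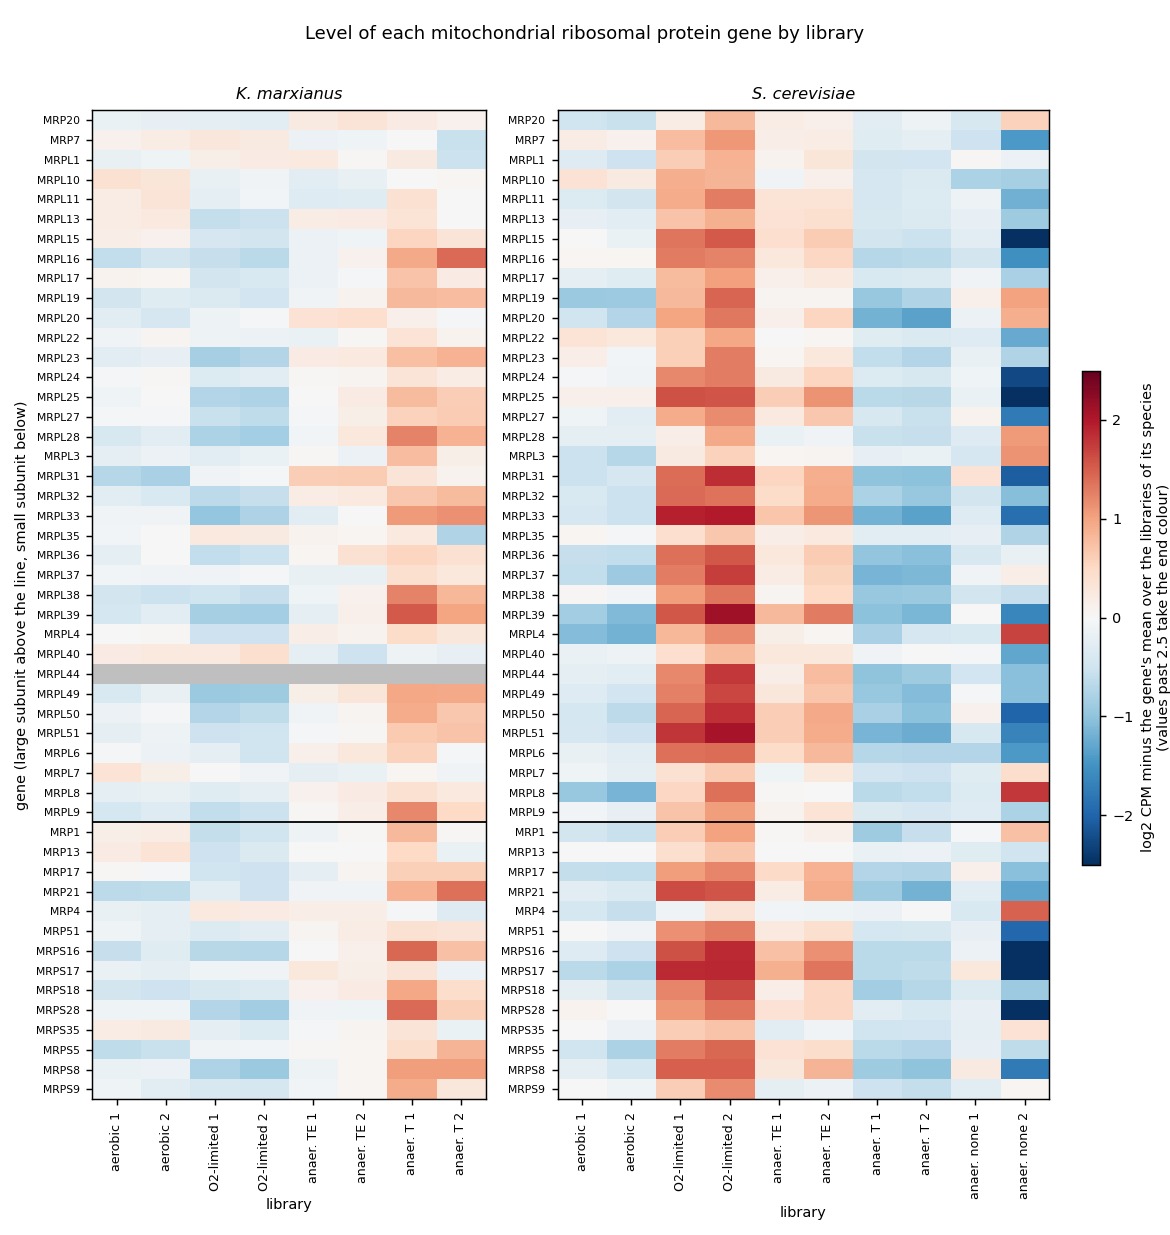
Level of each member (rows) in each library (columns), as log2 CPM minus the gene's mean over the libraries of its species; red is above and blue below that mean, and grey marks MRPL44, not analysed here in K. marxianus. The oxygen-limited S. cerevisiae columns and the T columns of K. marxianus are red for most genes, and unsupplemented library 2 departs from library 1 in both directions.

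The oxygen-limited and aerobic cultures differed in glucose and Tween 80 as well as in oxygen. In K. marxianus 21 of 49 members fell and 3 rose at an adjusted p under 0.05, against 25.0% and 22.0% of the 5143 genes tested, with a median log2 fold change of -0.30 against -0.08 over all genes. The 3 that rose were MRPL31, MRPS5 (a relative of bacterial S5) and MRP4. The lowest were MRPL33, MRPL13 and MRP13; the last of these and MRPL13 have no bacterial counterpart. MRPL33 was at 109 and 109 CPM in the aerobic libraries and at 59.6 and 67.8 in the oxygen-limited ones. The groups did not overlap, and the log2 fold change was -0.78 with an SE of 0.13 (adjusted p = 0.00261). MRPL31 went the other way, from 55.1 and 52.0 to 85.1 and 88.9 CPM (0.70 on the log2 scale, SE 0.12, adjusted p = 0.00274). Among the 15 K. marxianus members with no bacterial counterpart 10 fell and 1 rose, and among the 34 relatives of bacterial proteins 11 fell and 2 rose. Leaving out 1 library moved the number called from 24 to 11 (without aerobic library 1), 7 (aerobic library 2), 7 (oxygen-limited library 1), 8 (oxygen-limited library 2) and 15 (TE library 1).

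S. cerevisiae members were higher under oxygen limitation throughout: all 50 had a positive log2 fold change, from 0.49 to 2.84 with a median of 1.40, against -0.03 over all genes. Of these 26 rose at an adjusted p under 0.05, against 7.98% of the 5868 genes tested in that direction, and 0 fell. Without the unsupplemented group all 50 rose, against 31.1% of genes, and DESeq2 called 42. MRPL39 was at 103 and 87.6 CPM in the aerobic libraries and at 551 and 814 in the oxygen-limited ones (2.84 on the log2 scale, SE 0.52, adjusted p = 0.0134). MRPL33 was at 80.8 and 74.1 against 417 and 425 CPM (log2 fold change 2.44, SE 0.45, adjusted p = 0.0139). MRPS17 was at 96.8 and 89.9 against 567 and 570 CPM (2.61 on the log2 scale, adjusted p = 0.0903), so groups that lay far apart did not pass in the fit that includes the unsupplemented group. The smallest differences were those of MRPL22, a relative of bacterial L22, with 147 and 138 against 175 and 225 CPM (0.49), MRP13 (0.53) and MRPL35 (0.55). The count fell from 26 to 3 and 0 without aerobic library 1 and 2, to 14 and 8 without oxygen-limited library 1 and 2, to 16 without either TE library and to 14 without either T library, and rose to 50 without either unsupplemented library.

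The species difference, K. marxianus minus S. cerevisiae, was tested in a joint fit of 3885 genes matched 1 to 1, without the unsupplemented group. Of 49 members 47 were lower in that difference, against 28.0% of the matched genes, and all 49 values were negative, with a median of -1.70. The largest were those of MRPL39 (-3.35, SE 0.34, adjusted p = 5.71e-06), MRPL33 (-3.24, SE 0.21, adjusted p = 2.17e-07) and MRPL50 (-2.82, SE 0.24, adjusted p = 1.38e-06). MRPL35 (-0.28) and MRP4 (-0.19) did not pass. MRPL50 fell in K. marxianus from 80.7 and 86.1 to 53.1 and 57.1 CPM and rose in S. cerevisiae from 97.1 and 84.2 to 364 and 471 CPM.

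**Figure D3:**
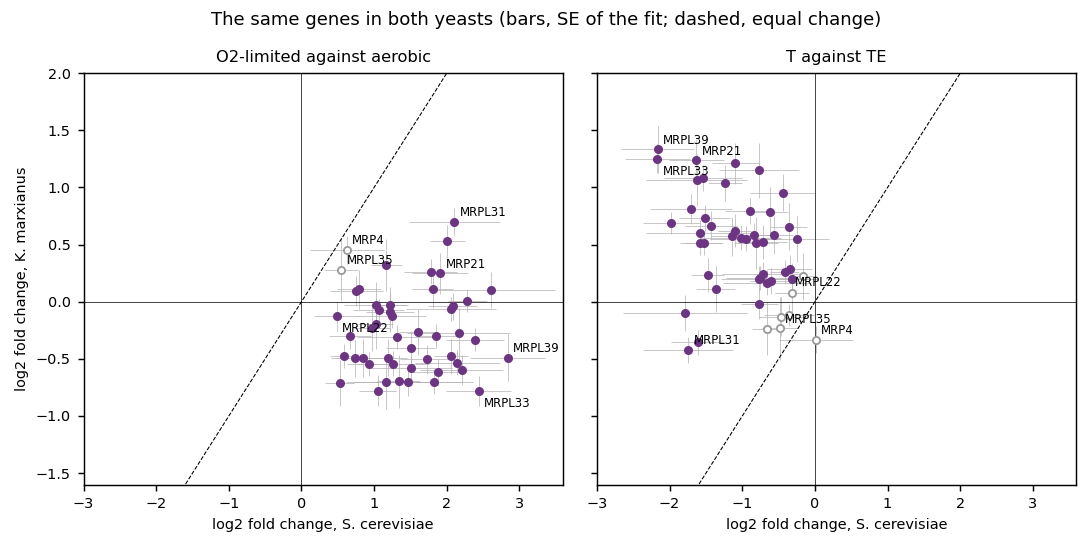
Log2 fold change of each of the 49 shared members in S. cerevisiae (x axis) and K. marxianus (y axis) for oxygen-limited against aerobic (left) and T against TE cultures (right), with the SE of each fit as bars. Filled points passed the test of the species difference (47 and 42 of 49), and the dashed line marks equal change; most points lie below it on the left and above it on the right.

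Fully anaerobic TE against aerobic cultures gave smaller values. In K. marxianus 15 of 49 members rose and 4 fell, against 27.9% and 28.6% of all genes, with a median of 0.17. The highest was again MRPL31, at 138 and 141 CPM in TE against 55.1 and 52.0 in aerobic libraries (log2 fold change 1.38, SE 0.12, adjusted p = 8.05e-05), followed by MRPL20 (0.75) and MRPS18 (0.64), a relative of bacterial S11. The 4 that fell were relatives of bacterial proteins of the large subunit: MRPL40 (-0.60), MRPL10 (-0.58), MRPL11 (-0.56) and MRPL7 (-0.45). The number called, 19, was 7 without aerobic library 1, 7 without aerobic library 2, 7 without TE library 2, 12 without either oxygen-limited library, and 36 and 34 without T library 1 and 2.

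S. cerevisiae members had a median of 0.68 in TE against aerobic cultures, and 45 of 50 were positive. The test called 5 higher, against 6.15% of all genes, and 0 lower: MRPL39 (2.05), MRPL32 (1.17), MRPL37 (1.14), MRPL36 (1.05) and MRPS5 (1.05). Without the unsupplemented group 39 rose, against 31.0% of genes, and DESeq2 called 14. MRPL39 was at 328 and 462 CPM in TE against 103 and 87.6 in aerobic libraries (SE 0.50, adjusted p = 0.0360). The 5 calls became 0 without either aerobic, TE or T library, 3 without either oxygen-limited library, and 38 and 39 without unsupplemented library 1 and 2. In the species difference 24 of 49 members were lower, against 22.1% of the matched genes; MRPL39 (-1.79), MRPS17 (-1.50) and MRPL33 (-1.50) were the lowest. This count was 13 without K. marxianus TE library 1, and 14 without S. cerevisiae aerobic library 2 or TE library 2.

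Going from oxygen limitation to full anaerobiosis at the same glucose and supplements (TE against oxygen-limited), the yeasts moved in opposite directions. In K. marxianus 28 members rose and 1 fell, against 25.7% and 26.3% of all genes, with a median of 0.48. MRPL49 was at 220 and 245 CPM in TE against 104 and 107 in oxygen-limited libraries (log2 fold change 1.13, SE 0.12, adjusted p = 0.000376). MRPL23 (1.01), a relative of bacterial L13, and MRPL28 (0.94), with no bacterial counterpart, followed. MRPL40, the one that fell, was at 45.8 and 38.1 CPM against 64 and 71.8 (-0.69, SE 0.14, adjusted p = 0.00488). Of the 28 that rose 15 had fallen in oxygen-limited against aerobic cultures. Both comparisons share the oxygen-limited libraries, and the share of all genes with both calls was not taken. The 29 calls were 16, 17 and 16 without oxygen-limited library 1, oxygen-limited library 2 and TE library 2.

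All 50 S. cerevisiae members were lower in TE than in oxygen-limited cultures, by 0.21 to 1.15 on the log2 scale, with a median of -0.80 against -0.01 over all genes. The edgeR test called 0, against 2.11% of all genes called in either direction. An unadjusted p under 0.05 was found for 25 of the 50 members and for 903 of all 5868 genes tested. DESeq2 called 17 lower. Without the unsupplemented group 43 fell, against 19.6% of genes, and the median was -0.80 and -0.78 without its library 1 and 2. MRPL51, with no bacterial counterpart, was at 258 and 322 CPM against 584 and 706 (-1.15, SE 0.39, adjusted p = 0.193), and the groups did not overlap. MRP4 showed the smallest difference, at 141 and 137 against 136 and 185 CPM (-0.21), with overlapping groups. The species difference was called higher for 42 of 49 members, against 23.1% of the matched genes, with a median of 1.26; MRPL49 (2.07, SE 0.23, adjusted p = 3.09e-05), MRPL23 (1.80) and MRPL36 (1.78), a relative of bacterial L31, led. MRPL40 was negative (-0.38, adjusted p = 0.123).

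Leaving ergosterol out of the feed (T against TE) is a comparison between anaerobic cultures at the same glucose. Uptake of sterol and the sterol content of the cells are not part of these data. In K. marxianus 26 of 49 members rose and 2 fell, against 18.9% and 18.4% of all genes, with a median of 0.52 against 0.03. MRPL39 was at 427 and 294 CPM in T against 124 and 162 in TE libraries (log2 fold change 1.33, SE 0.21, adjusted p = 0.00415). MRPL33 was at 243 and 256 against 95.1 and 115 CPM (1.25, SE 0.13, adjusted p = 0.00171). MRP21, a small-subunit protein, was at 221 and 314 against 113 and 114 CPM (1.24, SE 0.18, adjusted p = 0.00341). Groups overlapped for none of these 3. The 2 that fell, MRPL31 (113 and 95.8 against 138 and 141 CPM, -0.42) and MRPL20 (123 and 110 against 146 and 152 CPM, -0.36), were among those that had risen from oxygen-limited to TE cultures. Those comparisons share the TE libraries, with opposite sign, and the share of all genes with both calls was not taken. T library 1 was the higher of the pair for MRPS28 (432 and 245 CPM), a relative of bacterial S15, and for the member sum. Without it 27 rose and 7 fell with a median of 0.31, and the 28 calls were 11 and 17 without TE library 1 and 2. An edgeR fit of these 4 libraries alone called 0, and DESeq2 on all groups called 28 higher and 2 lower.

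S. cerevisiae members went the other way in the same comparison. All but MRP4 (0.01) were negative, with a median of -0.87, and 9 fell at an adjusted p under 0.05, against 3.32% of all genes. Without the unsupplemented group 41 fell, against 26.7% of genes, and DESeq2 called 22. The 9 were MRPL6, MRPL32, MRPL33, MRPL36, MRPL37, MRPL38, MRPL44, MRPL51 and MRPS5. All 9 were also called higher in oxygen-limited against aerobic cultures in the same fit, where all 50 members had positive values. The share of all genes with both calls was not taken. MRPL33 was at 47.6 and 42.6 CPM in T against 174 and 232 in TE libraries (log2 fold change -2.17, SE 0.45, adjusted p = 0.0398). MRPL51 was at 75.7 and 71.6 against 258 and 322 CPM (-1.98, SE 0.39, adjusted p = 0.0370). MRPL44, the gene not analysed here in K. marxianus, was at 27.4 and 29.6 against 62.0 and 94.0 CPM (-1.45, SE 0.32, adjusted p = 0.0454). The 9 calls were 0 without either aerobic, TE or T library, 4 without either oxygen-limited library, and 42 and 40 without unsupplemented library 1 and 2. The species difference was called higher for 42 of 49 members, against 25.7% of the matched genes, with a median of 1.40; MRPL39 (3.49, SE 0.34), MRPL33 (3.42, SE 0.21) and MRP21 (2.87, SE 0.31) were highest, at adjusted p of 1.15e-05, 4.43e-06 and 2.33e-05.

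**Figure D4:**
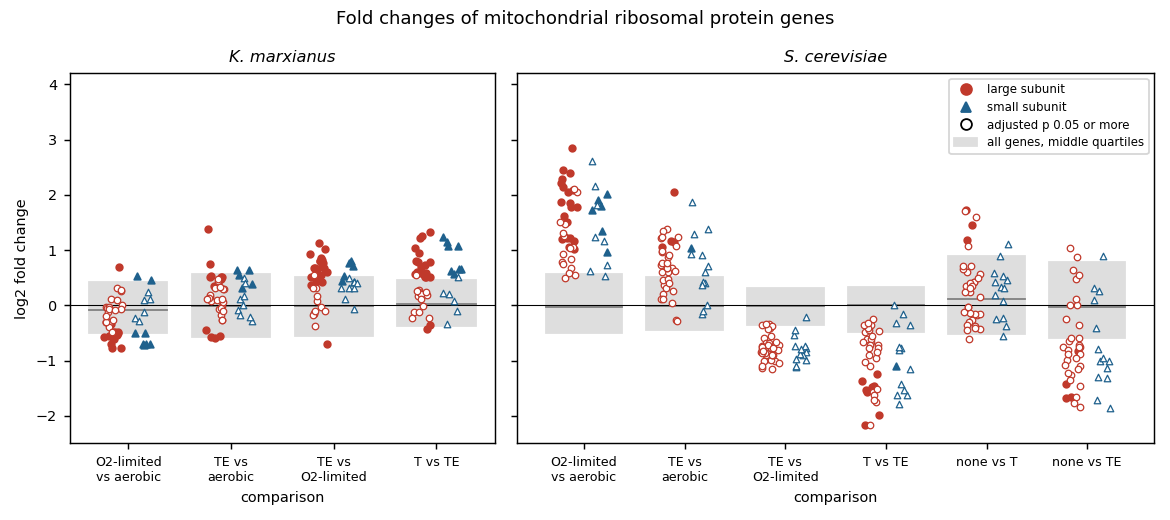
Log2 fold change of every member in each comparison, by species and subunit, where filled symbols have an adjusted p under 0.05 in the fit of all groups. Grey boxes span the middle quartiles of all genes tested and grey lines their median; in S. cerevisiae all 50 members lie above 0 for oxygen-limited against aerobic and below 0 for TE against oxygen-limited cultures.

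Removing Tween 80 as well was tested in S. cerevisiae alone, and its result rests on 2 unlike libraries. Against T the median was 0.31, 3 members rose (MRPL20, MRPL19 and MRPL37), against 8.37% of all genes, and 0 fell; DESeq2 called 7. MRPL20 was at 151 and 314 CPM against 73.5 and 65.9 in T libraries (log2 fold change 1.73, SE 0.37, adjusted p = 0.0327). The 2 unsupplemented libraries pulled in different directions for many members: MRPS17 was at 186 and 14.2 CPM, MRPS16 at 138 and 18.9 and MRPL31 at 141 and 26.5. Without unsupplemented library 1 the median was -0.37, and without library 2 it was 0.26. None of the 3 calls held without any 1 of the other 8 libraries. Against TE the median was -0.85 and 4 members fell (MRPL6, MRPL51, MRPL32 and MRPL10), against 2.57% of all genes. DESeq2 called 24 lower, with its share of all genes not taken. MRPL51 was at 128 and 52.9 CPM against 258 and 322 (-1.66, SE 0.39, adjusted p = 0.0436), so both unsupplemented libraries lay below TE. The median was -1.28 without unsupplemented library 1 and -0.62 without library 2. At most 1 of the 4 calls was left without any other library.

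Other genes of mitochondrial translation are given beside the members, with no test between lists. The S. cerevisiae counts of these lists, and of the respiratory and cytosolic ribosomal genes below, come only from the fit that includes the unsupplemented group. How they change without that group was not tested. The 26 other mitoribosomal protein genes of S. cerevisiae had a median of 1.58 in oxygen-limited against aerobic cultures, with 13 called higher against the 7.98% of all genes, from RSM23 (-0.05) to RSM19 (2.97), and 3 of 26 fell in T against TE (median -1.05), against 3.32% of all genes. In K. marxianus 15 of 23 rose in T against TE (median 0.59), against 18.9% of all genes, with IMG2 the highest (1.91), and 14 rose and 1 fell in TE against oxygen-limited cultures (median 0.46), against 25.7% and 26.3%. Of the mitochondrial tRNA synthetase genes of S. cerevisiae 1 of 14 rose in oxygen-limited against aerobic cultures (median 0.48), near the 7.98% of all genes, and their median in T against TE was -0.07. In K. marxianus 6 of 12 synthetase genes fell and 0 rose in TE against oxygen-limited cultures (median -0.32), against 26.3% and 25.7% of all genes; MSY1 was the lowest at -1.07 (SE 0.11, adjusted p = 0.000421). The 9 mitochondrial translation factor genes of S. cerevisiae had a median of 0.71 in oxygen-limited against aerobic cultures. Of these 0 were called, against 7.98% of all genes called higher, and 0 had an unadjusted p under 0.05. PUF3 itself, analysed in S. cerevisiae alone, had a log2 fold change of -0.63 in oxygen-limited against aerobic cultures (SE 0.21, adjusted p = 0.0903). It was -0.37 in TE against aerobic, 0.26 in TE against oxygen-limited and -0.08 in T against TE cultures. In unsupplemented cultures it was -0.68 against T and -0.76 against TE, and PUF3 was called in none of these comparisons. A relation between PUF3 and member levels was not tested.

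The products of respiratory genes are assembled with proteins that the mitoribosome makes. Of 27 nuclear genes of respiratory complexes in K. marxianus 21 fell in oxygen-limited (median -1.07) and all 27 in TE against aerobic cultures (median -1.98), against 25.0% and 28.6% of all genes, from ATP5 (-0.92) to CYT1 (-3.60). Their summed level was 17136 and 17545 CPM in aerobic and 4548 and 4443 in TE libraries, while the member sum was higher in TE. In S. cerevisiae 4 of 28 rose in oxygen-limited against aerobic cultures, against 7.98% of all genes, and their median of 0.86 had the sign of the members' 1.40. In TE against aerobic cultures 7 fell, against 6.95% of all genes, with a median of -0.74 where the members' was 0.68. The signs were again the same in TE against oxygen-limited cultures (medians -1.46 and -0.80) and in T against TE (-1.10 and -0.87). In unsupplemented against TE cultures 25 of 28 fell, against 2.57% of all genes (median -2.54).

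The cytosolic ribosome serves the whole cell. In K. marxianus 44 of 76 of its genes rose and 4 fell in T against TE (median 0.62), against 18.9% and 18.4% of all genes. In TE against oxygen-limited cultures 71 rose (median 1.07), against 25.7%, and in TE against aerobic cultures 67 rose (median 0.73), against 27.9%, where the members' median was 0.17. In oxygen-limited against aerobic cultures 33 fell and 2 rose (median -0.37), against 25.0% and 22.0%. Their sum was 88507 and 86766 CPM in oxygen-limited and 300086 and 288387 CPM in T libraries. In S. cerevisiae 51 of 110 rose in oxygen-limited against aerobic cultures (median 1.47), against 7.98% of all genes, and 14 fell in T against TE (median -1.11), against 3.32%. In unsupplemented against T cultures their median was 1.04 and that of the members 0.31, and against TE it was -0.16 and -0.85. These medians rest on 2 unlike libraries. The cytosolic sums in unsupplemented libraries 1 and 2 were 103799 and 251345 CPM. As unscaled shares of all counts they were 11.2% and 9.33%, so their order depended on scaling. The 2 oxygen-limited S. cerevisiae libraries differed here, at 215368 and 111819 CPM, while the mitoribosomal sums were 13786 and 16675 CPM in the opposite order. In TE against oxygen-limited cultures of S. cerevisiae the cytosolic genes had a median of -0.23 and the members of -0.80. At an unadjusted p under 0.05 were 2 of 110 cytosolic genes, 25 of 50 members and 903 of all 5868 genes tested. Many cytosolic ribosomal protein genes of S. cerevisiae are near-identical pairs. Reads mapping to several places were left out of the counts, so their values are uncertain. Whether this touches the K. marxianus genes was not examined.

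Gene length moved with the fold changes. Across the 50 S. cerevisiae members, which are 213 to 1185 bases long, Spearman's rho between length and log2 fold change was -0.68 in oxygen-limited against aerobic and 0.79 in T against TE cultures. Over all 5868 genes it was -0.46 and 0.55, and over the 2773 genes in the members' length range -0.31 and 0.39. The 10 shortest members had a median of 2.14 and the 10 longest of 0.76 in the first comparison, and -1.58 and -0.44 in the second. In K. marxianus rho across 49 members was 0.19 and -0.47 in these comparisons, against 0.10 and -0.19 over all 5143 genes. Members and genes share the libraries and are not independent replicates, so these are descriptions, and the part of length in the results was not tested. The medians of the 10 longest and the 10 shortest S. cerevisiae members lay on the same side of 0 in both comparisons. Those of the 10 shortest were further from it.

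**Figure D5:**
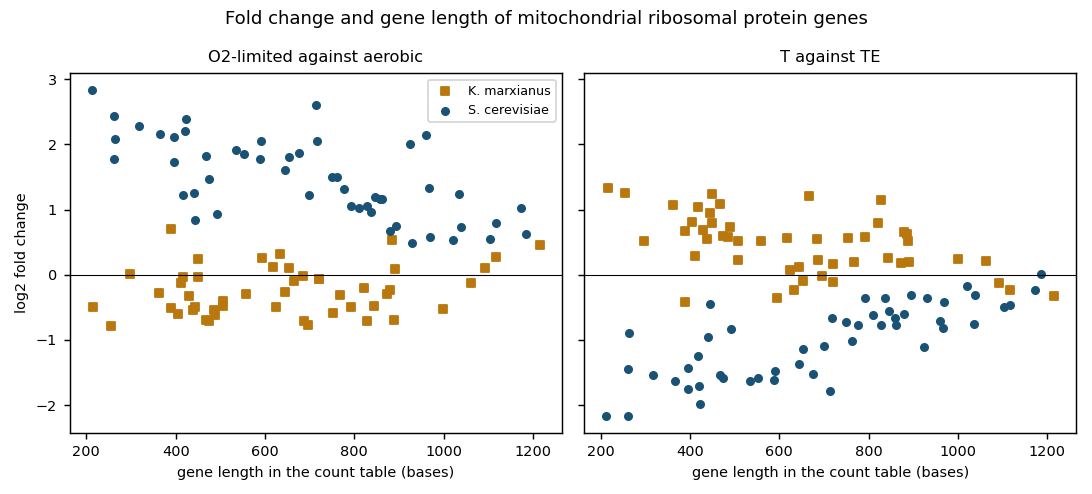
Log2 fold change against gene length in bases, as in the count tables, for oxygen-limited against aerobic (left) and T against TE cultures (right), with 1 point per member and species. Short members of S. cerevisiae have the largest values, positive on the left and negative on the right, and the K. marxianus points on the right are highest among the short genes.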

How the data were processed

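The members, gene lists and comparisons were chosen with earlier results of these data known, and lists were written from general knowledge of S. cerevisiae. The authors deposited raw counts of read pairs per gene and gene lengths in bases; per the file headers they were made with featureCounts 1.6.0 on annotations of CBS6556 and CEN.PK113-7D, with no strand option, and without multi-mapping reads. Per the submitters' processing notes Bowtie 1.2.1.1, SAMtools 1.3.1 and edgeR 3.28.1 were also used. The log2 fold changes in the authors' deposited table of oxygen-limited against aerobic cultures differed from those given here by at most 0.00013 over the members.

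The tests ran in R 4.3.3 with edgeR 4.0.16. Per species, filterByExpr kept 5143 and 5868 genes; after TMM scaling every group entered 1 quasi-likelihood fit with 4 and 5 residual degrees of freedom. A gene was called where its p, adjusted by Benjamini-Hochberg over all genes tested, was under 0.05. The SE is the absolute log2 fold change over the square root of F. The species difference used 3885 genes matched by S288C entry. CPM are TMM-scaled, and "against" a percentage is the share of all genes tested that edgeR called in that direction. That share was not taken for DESeq2, for 2 groups alone or with a single library left out. Members were named from the 3 highest and 3 lowest of each comparison, and other lists by their extremes; other members were named after their values were seen. The series' design text states 2 biological replicates per group. The p-values weigh a difference against a dispersion estimated from the spread within such pairs over all groups of a fit. The unsupplemented pair thus enters every S. cerevisiae comparison of the fit over all groups. With 2 libraries a group no exact permutation test can pass.

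Alternatives were RLE scaling, no filter on low counts, DESeq2 1.42.0, a fit of the 2 groups alone, leaving out the unsupplemented group, leaving out each library, and the title stem as a replicate block. The search after stop codons, on the RefSeq S288C genome, was added after the files were seen.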

Additional observations from a re-analysis of the deposited data

Results flagged for a closer look

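The response of the mitoribosomal genes differed between the yeasts by a test of the difference itself, taken on the log2 scale as K. marxianus minus S. cerevisiae, in all 4 shared comparisons. Of 49 members, 47 were lower for oxygen-limited against aerobic and 24 for TE against aerobic, beside 28.0% and 22.1% of the matched genes. For TE against oxygen-limited and for T against TE cultures 42 and 42 were higher, beside 23.1% and 25.7%. The difference for TE against aerobic was the weakest, with a median of -0.58 (-0.65 to -0.39 on leaving out 1 library). Its count depended on single libraries, as given above. Oxygen-limited against aerobic gave -3.35 for MRPL39, -3.24 for MRPL33 and -2.82 for MRPL50, the most negative, and -0.63 for MRPL22, the least negative that passed. TE against aerobic gave -1.79 for MRPL39, -1.50 for MRPS17 and -1.50 for MRPL33. TE against oxygen-limited gave 2.07 for MRPL49, 1.80 for MRPL23 and 1.78 for MRPL36. T against TE gave 3.49 for MRPL39, 3.42 for MRPL33 and 2.87 for MRP21. Species and run code coincide in the labels, and their parts in these differences cannot be told apart.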

How the results depend on the processing

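Directions of the members' medians held under RLE scaling, no filter on low counts, DESeq2, the 2 groups alone and the replicate block in every comparison run. Shares of all genes under DESeq2 and with the 2 groups alone were not taken. The number called did not hold in S. cerevisiae. Its counts were 26 (oxygen-limited against aerobic), 5 (TE with aerobic), 0 (TE with oxygen-limited) and 9 (T with TE). Without the unsupplemented group they were 50, 39, 43 and 41, and with DESeq2 42, 14, 17 and 22. With the 2 groups alone they were 50, 41 (40 higher, 1 lower), 27 and 48. For TE with oxygen-limited, 25 members and 903 of all 5868 genes had an unadjusted p under 0.05 in edgeR. For unsupplemented against T and against TE, counts of 3 and 4 were 7 and 24 with DESeq2 and 0 and 0 with the 2 groups alone. In K. marxianus the 2 groups alone gave 38 (median -0.23) and 30 for the first comparisons and 0 for T against TE. With the 2 groups alone, adding a replicate block on the stem of the titles moved the calls for K. marxianus T against TE from 0 to 11 and left those for unsupplemented against TE at 0; the labels do not state that stems pair samples, and replicate differences correlated across genes at 0.196 and -0.0931.

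Leaving out each library gave 7 to 36, 7 to 36, 16 to 40 and 11 to 39 calls in the 4 K. marxianus comparisons, with medians of -0.30 to -0.24, 0.14 to 0.29, 0.42 to 0.57 and 0.31 to 0.54. In S. cerevisiae it gave 0 to 50, 0 to 39, 0 to 45, 0 to 42, 0 to 33 and 0 to 45, with medians of 1.30 to 1.49, 0.50 to 0.76, -0.98 to -0.66, -0.94 to -0.68, -0.37 to 0.32 and -1.28 to -0.62. The median of unsupplemented against T thus reversed without library 1 (-0.37). The species difference gave 44 to 47, 13 to 29, 41 to 45 and 38 to 47 calls, with medians of -1.83 to -1.58, -0.65 to -0.39, 1.13 to 1.45 and 1.22 to 1.53. Over 1260 values of single named members, 84 lost and 79 gained their call and 9 reversed, each on leaving out 1 library and none a called value. In S. cerevisiae these were MRP4 in TE against oxygen-limited (-0.41 to 0.03) and T against TE (-0.08 to 0.09), MRPS28 in unsupplemented against T (-2.17 to 0.03), and in unsupplemented against TE MRPL4 (-0.56 to 1.60), MRP4 (-0.38 to 1.56) and MRPL8 (-0.44 to 1.75). In the species difference they were MRP4 (-0.40 to 0.06 for oxygen-limited against aerobic, -0.11 to 0.34 for TE against oxygen-limited) and MRPL35 (-0.32 to 0.67 for T against TE). The causes were not tested. Unsupplemented library 2 has a median of 71 read pairs per member, so counting error is largest there.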
